A study of Homo sapiens with 15 samples.

Results

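RAB GTPases are the largest branch of the RAS superfamily of small GTP-binding proteins, and their genes were followed here in knockout clones of HEK293T, a human embryonic kidney cell line. The members were all protein-coding genes of GENCODE release 29 whose symbol is RAB, a number and optional letters, without RAB27A, RAB27B and the genes named for RAB-binding proteins (RAB3GAP, RAB3IP, RAB3IL and RAB11FIP). This gave 63 of the 58735 genes listed for each library. 1 of the 63, RAB5IF, matches the letters but encodes a RAB5-interacting factor and no GTPase, so counts below are over the other 62.

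The study knocked out, 1 gene per clone, candidates of a screen for genes of supporting cells that affect the drug response of neighbouring cancer cells. RNA was sequenced from 5 groups of 3 culture wells, 15 libraries in all, from Non-target and the clones RHBDD2-CKO, MAGI2-CKO, C9orf89-CKO and MLPH-CKO. CKO stands for a CRISPR knockout clone, and all groups carry the lentiCRISPRv2 construct (Cas9 and 1 guide RNA) and passed puromycin selection. Non-target, labelled WT for genotype, carries a guide without a target. Each group, Non-target included, is 1 clone from limiting dilution. The spread between its 3 wells therefore covers culture and library preparation and not the difference between clones that share a guide. All 4 comparisons use the same 3 Non-target wells. Values are FPKM, fragment counts normalized for the length of the exons of a gene and for a scaling factor per library. This factor did not follow the fragment total exactly. On 1 kilobase of exons, 3 fragments gave 0.194 FPKM in Non-target 2 and 0.184 in RHBDD2-CKO 3. These libraries held 15763875 and 15517856 fragments. Where 4 values are given for the clones in a row, their order is C9orf89-CKO, MAGI2-CKO, then MLPH-CKO and last RHBDD2-CKO. A library held 15517856 to 19489918 fragments on genes, with medians of 16265355 in Non-target and, in the clones, 16429553, 19423812, 18488218 and 16209432.

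A RAB protein cycles between a GTP-bound form on a membrane and a GDP-bound form in the cytosol. Guanine nucleotide exchange factors (GEFs) switch it on, GTPase-activating proteins (GAPs) switch it off, and GDP dissociation inhibitors (GDIs) take it off the membrane. In its active form it recruits effectors that bud, move, tether and fuse vesicles, and each RAB marks its own compartments, for example RAB1 between endoplasmic reticulum and Golgi, RAB5 on early endosomes, RAB11 on recycling endosomes and RAB7A on late endosomes and lysosomes. Membrane attachment needs geranylgeranyl groups, which are added to cysteines at the very end of the protein.

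That end is written into the last bases of the coding sequence. Of the 62 GTPase genes, 60 had at least 1 cysteine codon (TGT or TGC) among their last 5 codons, and 48 had at least 2. RAB6C and RAB6D, near-copies of RAB6A, had none. The lines below give the last 30 coding bases (10 codons before the stop, 5′ to 3′, GENCODE 29) of the 5 genes with the widest range between groups, of RAB39A as the close relative of RAB39B, and of RAB6C for contrast, with cysteine codons in capitals.
RAB32: ttgagagcagagaacaaatcccagTGTTGC
RAB38: gttgccagcTGCtctggcTGTgccaaatcc
RAB39A: gcagtaaagcccaggaaagaaTGCttcTGC
RAB39B: gttgtcaaatcagagaggagaTGTttgTGC
RAB3C: cctcctccaccgcagcccaacTGTgccTGC
RAB26: gagggtcgaggggcctccTGCTGCcgccct
RAB6C: aattcatcattgctgcctgtctcgtggagg
RAB32 and RAB38, close relatives with 74.1% identical coding bases, differ here: RAB32 ends on a pair of cysteine codons, while RAB38 has 1 cysteine codon within its last 5 and another earlier. RAB39A and RAB39B (74.6% identical) share the spacing of 1 codon between their cysteines.

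The libraries with replicate number 1 stood apart within every group. Over genes with enough fragments, the chi-square per gene between libraries of 1 group was 14.6 to 24.8 for pairs with number 1 and 2.40 to 6.54 between numbers 2 and 3. The counts of RAB genes that changed are therefore also given without number 1. The labels do not say what the numbers share.

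Of the targeted genes, RHBDD2 fell from a mean of 33.5 FPKM in Non-target to 12.4 in RHBDD2-CKO (log2 change −1.42). It was also at 13.8 FPKM in MAGI2-CKO (−1.27, adjusted p 1.6e-05 in limma), a clone that was not aimed at it. The 100 tested genes nearest to RHBDD2 had a median log2 change of −0.51 in MAGI2-CKO and 0.04 in RHBDD2-CKO. C9orf89, listed under its current symbol CARD19, was at 6.56 FPKM in Non-target and 4.32 in C9orf89-CKO (−0.58, adjusted p 0.000977 in limma), and it was also lower in RHBDD2-CKO (−0.44, adjusted p 0.00489 in limma). MAGI2 lay under the limit for testing, at 0.115 FPKM in Non-target and 0.068 in MAGI2-CKO, which is too low to check that label. MLPH, which encodes melanophilin, an effector of RAB27A on melanosomes, was at 0 fragments in all 15 libraries, so its level checks no label. A guide disrupts the protein and need not lower the transcript.

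All 6 markers of HEK293T were present in Non-target, with VIM the most abundant (62.5 FPKM on average over all libraries), and 3 of them differed widely between groups. NEFM was at 27.2 FPKM in Non-target, 0.0274 in MAGI2-CKO and 1.34 in RHBDD2-CKO. NEFL was at 18.8 FPKM in Non-target and 0.984 in RHBDD2-CKO, and KRT8 at 5.09 in Non-target and 15.3 in MLPH-CKO. The 7 markers of myeloid cells summed to 0.179 to 0.629 FPKM per library, with SPI1 the most abundant and at most 1 fragment of PTPRC. The 7 mesenchymal markers summed to 3.09 to 5.86 FPKM, mostly COL1A1, with at most 1 fragment of COL1A2 and 3 of THY1. In bulk RNA, fewer cells with a transcript and less of it in each cell cannot be told apart.

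Of the 62 GTPase genes, 51 passed the filter of 0.5 FPKM in 3 libraries and were tested. Of these, 4 passed through the libraries of 1 group and would not have passed without it: RAB3C through MAGI2-CKO, RAB38 and RAB40A through Non-target, and RAB41 through MLPH-CKO (6.49% of all tested genes were of this kind). Such a gene had to be high in that group, so its differences from it are descriptions and support no count. Their median level was 7.27 FPKM, against 4.29 for all 16175 genes tested. RAB7A had the highest mean (81.4 FPKM), followed by RAB1B (51.6), RAB10 (43.2), RAB1A (38.8) and RAB11A (32.1). RAB10 serves exocytic delivery, and RAB1A and RAB1B act between endoplasmic reticulum and Golgi. These 5 held 39.9% of the summed FPKM of the family. In all, 17 GTPase genes reached a mean of 10 FPKM and 44 a mean of 1 FPKM. The ranking of the most abundant members is by mean only: RAB10 at 41.3 ± 1.21 and RAB1A at 39.8 ± 2.73 FPKM in Non-target (SD, n = 3) lie within their spread of each other.

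By compartment, RABs of recycling and polarized delivery held 33.4% of the family's FPKM, those of the endoplasmic reticulum and Golgi 24.5%, late endosome, lysosome and autophagy 18.6% and early endosome 9.56%. RABs of cilia held 5.25%, of lysosome-related organelles 4.14%, of regulated secretion 2.24% and those with a SOCS box (RAB40 genes, parts of ubiquitin ligases) 2.19%. The family sum was 656 ± 13.3 FPKM in Non-target, 626 ± 2.41 in C9orf89-CKO, 624 ± 45.7 in MLPH-CKO, 584 ± 29.9 in RHBDD2-CKO and 604 ± 28.5 in MAGI2-CKO (SD, n = 3). All means of the clones were lower than that of Non-target, while the SD of MLPH-CKO exceeded its difference. The sums also carry the scaling factor of each library, and its part in these differences was not tested.

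**Figure D1:**
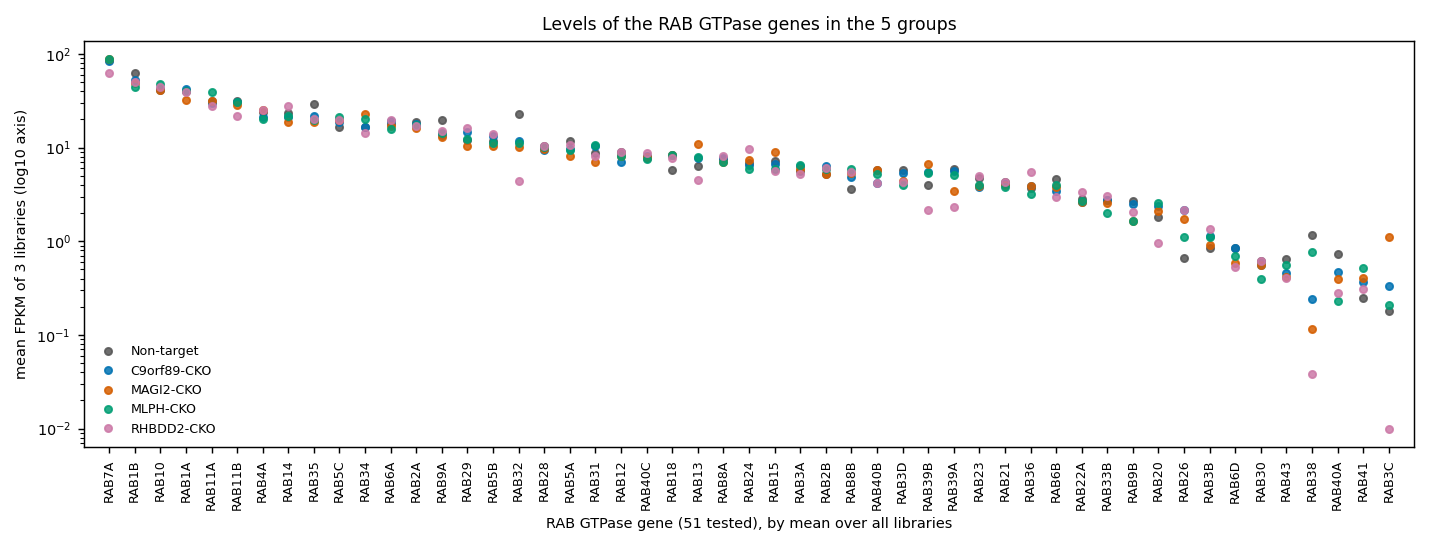
Mean FPKM (log10 axis) of the 51 tested RAB GTPase genes in each of the 5 groups, 1 symbol per group, with genes ordered by their mean over all libraries. The family spans from RAB7A at 81.4 FPKM to genes under 1 FPKM, and for most genes the 5 groups lie close together.

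The other 11, RAB4B, RAB6C, RAB7B, RAB17, RAB19, RAB25, RAB33A, RAB37, RAB40AL, RAB42 and RAB44, did not pass the filter. None exceeded 38 fragments in a library, and the highest mean among them was 0.174 FPKM for RAB37, a RAB of secretory granules. RAB17 and RAB25, which are known from polarized epithelia, had at most 2 and 6 fragments in a library. These genes were not tested, and for most of them the depth leaves too few fragments to compare groups. RAB37, picked out after its values were seen, summed to 14 fragments in Non-target and to 62, 31, 99 and 32 in the 4 clones. Its libraries in Non-target (0.0246, 0.0764 and 0.0674 FPKM) lay below all libraries of every clone, with the lowest at 0.0812 in MAGI2-CKO and 0.0931 in RHBDD2-CKO. The values were 0.410, 0.356 and 0.290 FPKM in MLPH-CKO and 0.179, 0.285 and 0.248 in C9orf89-CKO.

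Against Non-target, RAB genes changed in each clone, falls outnumbering rises. RAB38 and RAB40A, tested because Non-target is high, are among the falls. RAB3C, tested because MAGI2-CKO is high, is among the rises there. Their calls support neither the counts nor their direction, and shares without such genes follow below. Among the other tested RAB genes falls also outnumbered rises, narrowly so in C9orf89-CKO. In C9orf89-CKO 7 RAB genes rose and 9 fell, 16 of 51 or 31.4%, where 26.0% of all tested genes passed (12.9% higher, 13.1% lower). In MAGI2-CKO 7 rose and 16 fell, 45.1% against 36.1% of all genes (17.0% higher, 19.1% lower). In MLPH-CKO 7 rose and 11 fell, 35.3% against 30.1% (14.5% higher, 15.5% lower). In RHBDD2-CKO 10 rose and 18 fell, 54.9% against 34.1% (17.4% higher, 16.7% lower). These calls are limma's at an adjusted p under 0.05 over all tested genes. The share of RAB genes lay above that of all genes in each clone, most in RHBDD2-CKO. The median log2 change of the tested RAB genes was −0.03, −0.10, −0.12 and −0.11 in the 4 clones, while that of all genes lay within 0.01 of 0.

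The share of all genes that passes is higher for more abundant genes. Among those with a mean of at least 1 FPKM, where 44 RAB genes were tested, 15, 19, 17 and 24 RAB genes passed in the 4 clones, and the shares of all such genes were 29.4%, 39.4%, 33.8% and 39.0%. With only the libraries numbered 2 and 3 the counts of RAB genes were 16, 23, 16 and 30 of 51, where 32.4%, 40.4%, 36.9% and 42.0% of all genes passed. As shares these counts are 31.4%, 45.1%, 31.4% and 58.8%, so that without the libraries that stood apart the share of RAB genes lay above that of all genes in MAGI2-CKO and RHBDD2-CKO and below it in MLPH-CKO and C9orf89-CKO. Over the 47 RAB genes that would pass the filter without any 1 group, 15, 20, 17 and 25 passed (31.9%, 42.6%, 36.2% and 53.2%), against 26.6%, 36.8%, 30.9% and 34.9% of all such genes. Leaving out C9orf89-CKO replicate 2 left 9 RAB genes (17.6%) in that clone, against 20.9% of all genes.

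By values alone, all 3 libraries of a clone lay on 1 side of all 3 Non-target libraries for 23, 26, 19 and 32 RAB genes in the 4 clones, and for 39.7%, 46.8%, 41.1% and 44.2% of all genes. As shares of the 51 tested RAB genes these counts are 45.1%, 51.0%, 37.3% and 62.7%. Only in MLPH-CKO was the share of RAB genes under that of all genes. In the F test over the 5 groups 34 RAB genes passed, 66.7% against 61.0% of all genes.

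**Figure D2:**
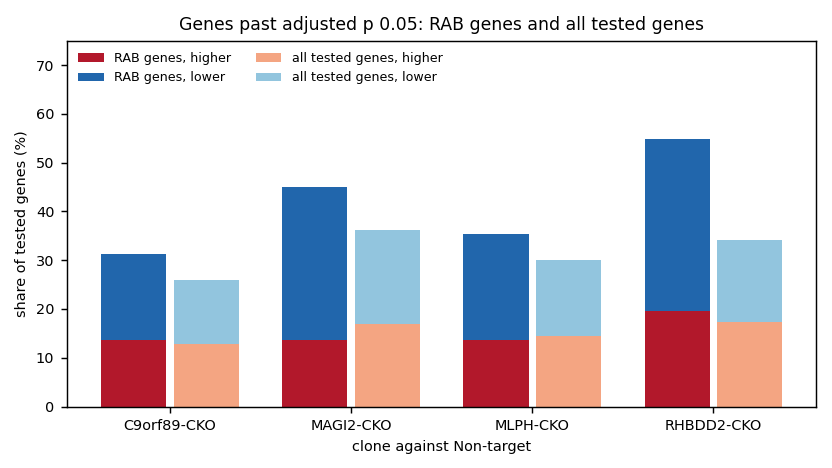
Percent of genes past an adjusted p of 0.05 in limma for each clone against Non-target, as stacked bars of higher and lower genes, for the 51 tested RAB GTPase genes beside all 16175 tested genes. The bar of RAB genes in RHBDD2-CKO is the tallest at 54.9%, against 34.1% of all genes.

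The changes of most RAB genes were small. The range of the group means was at least 1 on the log2 scale for 9 of 51 RAB genes (17.6%, against 27.1% of all genes), with a median range of 0.55 against 0.63. The 5 widest were RAB3C, RAB38, RAB32, RAB39B and RAB26. RAB3C and RAB38, as also RAB40A among the 9, were tested through 1 high group, so their ranges are descriptions. In no clone passed 15 RAB genes (29.4%, against 38.5% of all genes), among them RAB1A, RAB2A, RAB2B, RAB5C, RAB6A and RAB8A. They were picked after their values were seen, and their close relatives RAB1B, RAB5A, RAB5B and RAB8B did pass in some or all clones. Of these 6, RAB8A alone passed in no clone under any of the 25 alternative fits. RAB1A passed in MAGI2-CKO with only the libraries numbered 2 and 3 (−0.38, adjusted p 0.00249 in limma), without MAGI2-CKO 1 (0.0336) and with the replicate number in the model (0.00413). RAB2A passed in MAGI2-CKO, MLPH-CKO and RHBDD2-CKO with only numbers 2 and 3 (−0.22, −0.21 and −0.21, adjusted p 0.0113, 0.018 and 0.014 in limma). With the replicate number in the model RAB2B passed in C9orf89-CKO (0.28) and RAB5C (0.30) and RAB6A (−0.17) in MLPH-CKO, with adjusted p 0.0494, 0.0497 and 0.0375 in limma. A pass in 1, 2, 3 and 4 clones was found for 12, 7, 9 and 8 RAB genes.

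3 RAB genes were higher in all 4 clones (5.88%, against 3.39% of all genes): RAB8B, RAB18 and RAB26. 4 were lower in all 4 (7.84%, against 3.26%): RAB1B, RAB9A, RAB32 and RAB35. These counts partly rest on single libraries: without Non-target 3, RAB26 lost its call in MLPH-CKO (adjusted p 0.0524 in limma), RAB18 in RHBDD2-CKO (0.065) and RAB1B in C9orf89-CKO (0.071), which left RAB8B, RAB9A, RAB32 and RAB35. Since the 4 comparisons share their Non-target wells, these 7 can also be read as genes that set the Non-target clone apart, and they were the 7 RAB genes for which Non-target differed from each other group (6.65% of all genes did). A further 7 rose in 1 clone or more and fell in another (13.7%, against 7.28%): RAB5B, RAB14, RAB15, RAB29, RAB31, RAB39B and RAB3C. Of these, RAB3C passed the filter through MAGI2-CKO alone, where it rose, so it adds no support to this count. RAB5B is in this count through its fall in MAGI2-CKO, which did not hold without Non-target 1, MAGI2-CKO 1 or MAGI2-CKO 3 (adjusted p 0.0826, 0.0605 and 0.074 in limma).

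**Figure D3:**
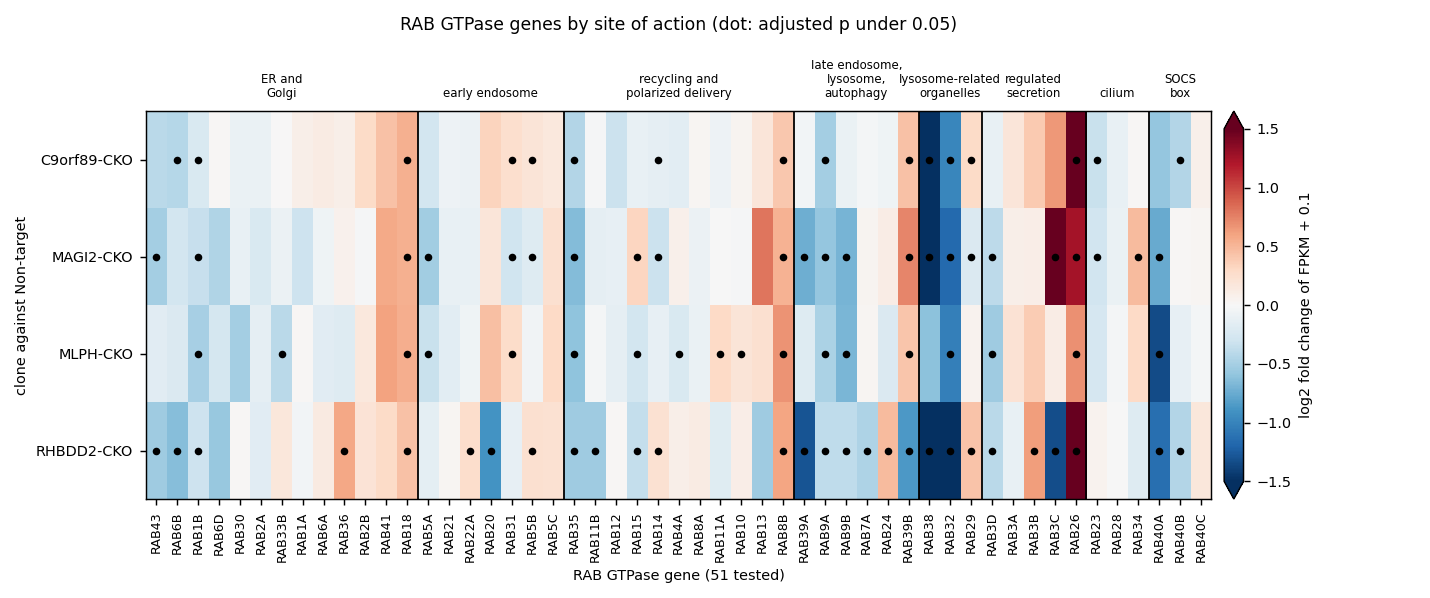
Log2 change against Non-target of the 51 tested RAB GTPase genes (columns, grouped by compartment) in the 4 clones (from top to bottom), with colours that saturate at 1.5 in either direction and a dot where limma's adjusted p is under 0.05. RAB32 is low and RAB26 high in all 4 clones, and RAB39B and RAB3C are high in MAGI2-CKO and low in RHBDD2-CKO.

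Among tested RAB genes with a mean of at least 1 FPKM and no overlap with Non-target, RAB32 had the largest fall in each clone. RAB38, like RAB32 of lysosome-related organelles, fell further in C9orf89-CKO, MAGI2-CKO and RHBDD2-CKO. It was tested because Non-target is high, so its falls are descriptions. The 3 members of this compartment are RAB32 and RAB38, which direct enzymes to melanosomes and similar organelles and share the GEF BLOC-3, and RAB29, a regulator of the kinase LRRK2. All 3 were tested: 1 rose and 2 fell in C9orf89-CKO, 3 fell in MAGI2-CKO, 1 fell in MLPH-CKO, and 1 rose and 2 fell in RHBDD2-CKO. RAB38 is 1 of the falls in each clone except MLPH-CKO, and as a description it supports no count. The counts of a compartment rest on few genes, beside 26.0%, 36.1%, 30.1% and 34.1% of all genes that passed in the 4 clones. RAB32 (ENSG00000118508, chr6:146543693-146554965, plus strand, GRCh38) measured 20.2, 25.3 and 23.2 FPKM in the Non-target libraries 1 to 3. It measured 9.36, 10.9 and 14.8 in C9orf89-CKO, 10.9, 9.41 and 9.98 in MAGI2-CKO, 12.6, 10.3 and 10.7 in MLPH-CKO and 4.07, 4.56 and 4.44 in RHBDD2-CKO. Every library of every clone lay below every Non-target library, and RHBDD2-CKO lay below all others. RAB32 was 1.96-fold lower in C9orf89-CKO, 2.27-fold in MAGI2-CKO, 2.04-fold in MLPH-CKO and 5.25-fold in RHBDD2-CKO. Log2 changes came to −0.98, −1.17, −1.02 and −2.36, with an SE of 0.14 each (adjusted p at most 0.00028 in limma). RHBDD2-CKO was also lower than each other clone, by −1.38, −1.19 and −1.34 against them in the same order.

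RAB38 (ENSG00000123892, chr11:88113242-88175467, minus strand) was a low transcript, at 1.32, 0.970 and 1.21 FPKM in Non-target. It was at 0.165, 0.265 and 0.287 in C9orf89-CKO, 0, 0.176 and 0.175 in MAGI2-CKO, 0.897, 0.399 and 1.01 in MLPH-CKO and 0.075, 0.040 and 0 in RHBDD2-CKO. Non-target did not overlap with C9orf89-CKO, MAGI2-CKO or RHBDD2-CKO, while MLPH-CKO reached into its range. RAB38 was tested because Non-target is high, so its falls are descriptions. Their calls held in the fit with no filter on low values, but this adds no support, since RAB38 was picked from genes that passed it. On the log2(FPKM + 0.1) scale the changes were −1.91, −2.68 and −3.22 in C9orf89-CKO, MAGI2-CKO and RHBDD2-CKO (SE 0.43), and −0.62 in MLPH-CKO (95% interval −1.55 to 0.32, adjusted p 0.318 in limma). With a pseudocount of 0.01 the adjusted p in C9orf89-CKO was 0.13 in limma (−2.26). From summed fragments, Non-target was 4.87 times C9orf89-CKO (84 against 18 fragments, exact 95% interval 2.90 to 8.61), 9.98 times MAGI2-CKO (84 against 10, 5.17 to 21.6) and 29.3 times RHBDD2-CKO (84 against 3, 9.69 to 145). These intervals cover counting error only. The interval of MAGI2-CKO overlaps those of the other 2, while those of C9orf89-CKO and RHBDD2-CKO do not overlap each other.

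Together RAB32 and RAB38 summed to 24.1 ± 2.42 FPKM in Non-target, 11.9 in C9orf89-CKO, 12.0 in MLPH-CKO, 4.40 ± 0.23 in RHBDD2-CKO and 10.2 in MAGI2-CKO (SD, n = 3). RAB32 made up almost all of the sum. RAB29 measured 12.0 ± 0.172 FPKM in Non-target. It rose in C9orf89-CKO (14.6 FPKM, log2 change 0.29) and RHBDD2-CKO (16.1 FPKM, 0.43), fell in MAGI2-CKO (10.3 FPKM, −0.22), and was at 12.4 FPKM in MLPH-CKO (0.05, adjusted p 0.545 in limma). RAB29 thus fell with RAB32 and RAB38 in MAGI2-CKO, but rose where they fell in C9orf89-CKO and RHBDD2-CKO.

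Markers of melanocytes and secretory cells, which depend on such organelles, were low: 3 of 6 (TYR, INS and PRL) were at 0 in every library, and the list summed to 2.18 to 3.48 FPKM, with MITF the most abundant at 1.58. PMEL, a melanosome protein, was at 0.261 FPKM in Non-target and 0.64, 0.892, 0.962 and 0.639 in the clones, opposite in direction to RAB32. MITF was at 1.90 FPKM in Non-target and lower in each clone (1.33, 1.62, 1.36 and 1.69), the direction of RAB32. Among mesenchymal markers COL3A1 (1.29 FPKM in Non-target, 0.129 to 0.352 in the clones) and LUM (0.714 and 0.0134 to 0.281) were lower in each clone, as RAB32 was, while COL1A1, the most abundant, was higher in each (2.43 FPKM in Non-target and 4.12, 4.75, 4.48 and 3.28 in the clones). The part of these genes in the change of RAB32 was not tested.

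Of the RABs of regulated secretion 5 of 6 were tested, and they moved in different directions: 1 rose and 0 fell in C9orf89-CKO, 2 and 1 in MAGI2-CKO, 1 and 1 in MLPH-CKO and 2 and 2 in RHBDD2-CKO. The rises in MAGI2-CKO include RAB3C, which was tested because it is high there and so supports no count. The member that rose in every clone was RAB26, a RAB of secretory granules that also directs synaptic vesicles to autophagy (ENSG00000167964, chr16:2140803-2154165, plus strand). It was at 0.601, 0.753 and 0.618 FPKM in Non-target. The clone libraries were at 2.46, 2.30 and 1.69 in C9orf89-CKO, 2.19, 1.74 and 1.28 in MAGI2-CKO, 1.10, 1.15 and 1.07 in MLPH-CKO and 1.88, 2.59 and 2.05 in RHBDD2-CKO. All 12 clone libraries lay above all Non-target libraries, and MLPH-CKO lay below all libraries of the other clones. RAB26 was 3.27-fold higher in C9orf89-CKO, 2.64-fold in MAGI2-CKO, 1.69-fold in MLPH-CKO and 3.31-fold in RHBDD2-CKO (log2 changes 1.56, 1.25, 0.68 and 1.58, SE 0.19, adjusted p at most 0.0162 in limma). In MLPH-CKO the adjusted p was 0.0517, 0.0524 and 0.0504 in limma without Non-target 1, Non-target 3 or MLPH-CKO 2, and 0.0513 with only the libraries numbered 2 and 3 (log2 change 0.63).

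RAB3 proteins tie secretory vesicles to the exocytosis machinery. RAB3A and RAB3D made up most of the RAB3 sum, with 5.58 ± 0.586 and 5.81 ± 0.782 FPKM in Non-target. RAB3C (ENSG00000152932, chr5:58582221-58859394, plus strand) was at 0.219, 0.120 and 0.201 FPKM in Non-target, 0.370, 0.288 and 0.348 in C9orf89-CKO and 0.340, 0.132 and 0.158 in MLPH-CKO. It was at 1.16, 1.08 and 1.09 in MAGI2-CKO and at 0.011, 0.012 and 0.006 in RHBDD2-CKO. MAGI2-CKO was above and RHBDD2-CKO below every other library. RAB3C reached 0.5 FPKM in MAGI2-CKO alone and was tested for that reason, so its rise there is a description. On the log2 scale the clones differed from Non-target by 2.13 in MAGI2-CKO (SE 0.29) and −1.33 in RHBDD2-CKO (adjusted p 0.00356 in limma). The pseudocount compresses the latter: summed fragments gave Non-target 18.0 times RHBDD2-CKO (86 against 5 fragments, exact 95% interval 7.42 to 56.8). MAGI2-CKO was 6.13 times Non-target (626 against 86 fragments, 4.88 to 7.77) and 110 times RHBDD2-CKO (626 against 5, 47.0 to 341).

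RAB3C made up 1.47% of the RAB3 sum in Non-target, 9.003% in MAGI2-CKO and 0.09% in RHBDD2-CKO. RAB3D fell in MAGI2-CKO, MLPH-CKO and RHBDD2-CKO (−0.39, −0.53 and −0.41, SE 0.13), but in MAGI2-CKO and RHBDD2-CKO not without Non-target 2 or 3 (adjusted p 0.0654 to 0.145 in limma) nor without MAGI2-CKO 1 or 3 and RHBDD2-CKO 1 or 2. RAB3B rose in RHBDD2-CKO (0.62, SE 0.18, adjusted p 0.015 in limma, but 0.0687 without Non-target 2 and 0.0542 without RHBDD2-CKO 1). RAB3A passed in no clone, and in MLPH-CKO it did without MLPH-CKO 3 (0.36, adjusted p 0.0486 in limma). Within this subfamily the members moved in different directions in RHBDD2-CKO.

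**Figure D4:**
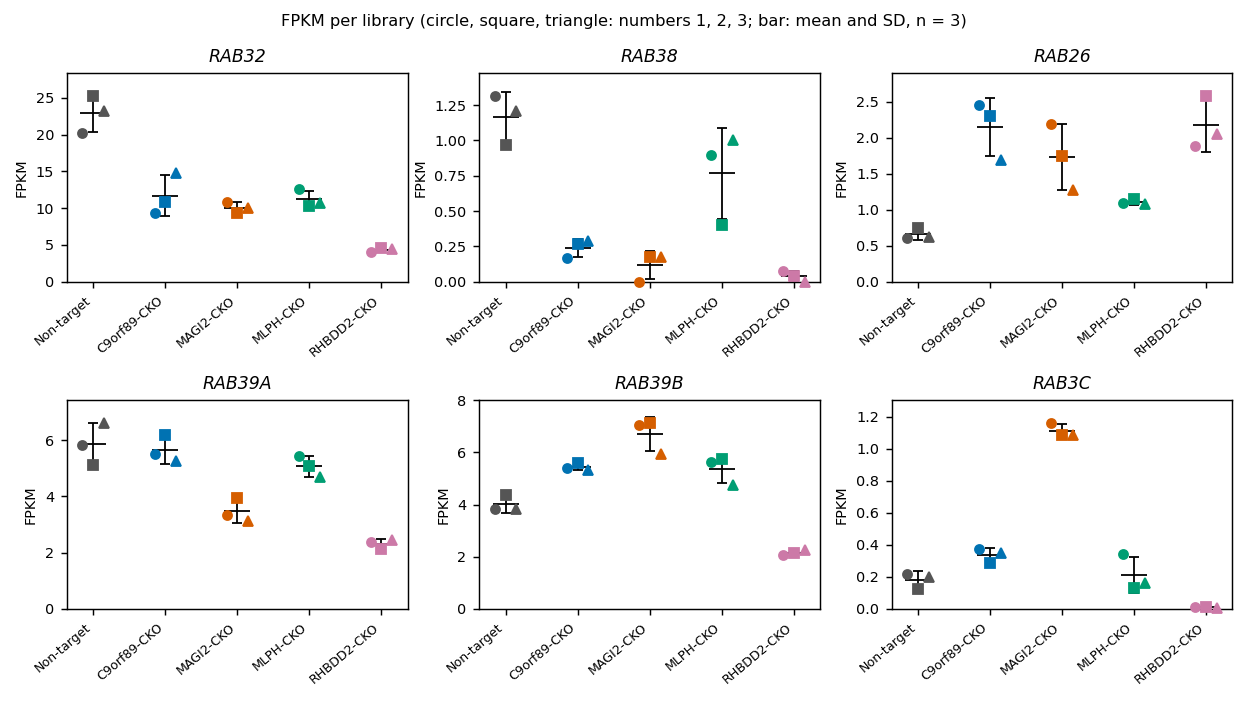
FPKM in each library of RAB32, RAB38, RAB26, RAB39A, RAB39B and RAB3C by group, with circles, squares and triangles for replicate numbers 1, 2 and 3 and bars for mean and SD (n = 3). RHBDD2-CKO is lowest for RAB32 (4.07 to 4.56 FPKM), RAB39A, RAB39B and RAB3C, and MAGI2-CKO is highest for RAB39B and RAB3C.

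Of the late endosome, lysosome and autophagy RABs 6 of 7 were tested, and all 6 passed in RHBDD2-CKO, where 34.1% of all genes passed: RAB24 rose, and RAB7A, RAB9A, RAB9B, RAB39A and RAB39B fell. The calls of RAB7A and RAB9B did not hold in several fits without 1 library. In C9orf89-CKO 1 rose and 1 fell, in MAGI2-CKO 1 rose and 3 fell, and in MLPH-CKO 1 rose and 2 fell. The median log2 change of the 6 in RHBDD2-CKO was −0.42, against 0.00 for all genes. RAB39A and RAB39B are linked to phagosome acidification and to autophagy. RAB39A (ENSG00000179331, chr11:107928503-107963482, plus strand) was at 5.82, 5.12 and 6.63 FPKM in Non-target, 5.53, 6.19 and 5.25 in C9orf89-CKO and 5.45, 5.08 and 4.71 in MLPH-CKO. It was at 3.35, 3.94 and 3.14 in MAGI2-CKO and 2.38, 2.13 and 2.45 in RHBDD2-CKO, both below every other library. The log2 changes were −0.73 in MAGI2-CKO and −1.29 in RHBDD2-CKO (SE 0.11, adjusted p 0.000224 and 2.94e-06 in limma).

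RAB39B (ENSG00000155961, chrX:155258241-155264589, minus strand), a gene of intellectual disability and early parkinsonism, was at 3.82, 4.37 and 3.82 FPKM in Non-target. It was at 5.39, 5.58 and 5.34 in C9orf89-CKO, 7.04, 7.15 and 5.95 in MAGI2-CKO, 5.63, 5.74 and 4.75 in MLPH-CKO and 2.06, 2.16 and 2.24 in RHBDD2-CKO. RHBDD2-CKO lay below and the other clones above every Non-target library. Log2 changes came to 0.43, 0.73, 0.41 and −0.86 (SE 0.09, adjusted p 0.00376, 5.02e-05, 0.00442 and 1.71e-05 in limma). With only the libraries numbered 2 and 3 the rise in MLPH-CKO was 0.35 (adjusted p 0.0604 in limma). Hence both RAB39 genes fell in RHBDD2-CKO, where their sum was 4.47 FPKM against 9.86 in Non-target. In MAGI2-CKO they moved apart, with a sum of 10.2 FPKM and a share of RAB39A of 34.1% against 59.3% in Non-target.

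RAB9 proteins recycle mannose 6-phosphate receptors from late endosomes to the trans-Golgi. RAB9A (ENSG00000123595, chrX:13689125-13710506, plus strand) was at 18.7, 19.9 and 20.2 FPKM in Non-target, 12.3, 14.97 and 14.1 in C9orf89-CKO, 12.6, 13.6 and 13.01 in MAGI2-CKO, 15.8, 13.7 and 12.98 in MLPH-CKO and 15.7, 14.9 and 14.5 in RHBDD2-CKO. No clone library reached the Non-target range. On the log2 scale the clones differed from Non-target by −0.51, −0.58, −0.47 and −0.38 (SE 0.08, adjusted p at most 0.00341 in limma). RAB9B, the lower-expressed copy, fell in MAGI2-CKO and MLPH-CKO (−0.69 each) and RHBDD2-CKO (−0.38, adjusted p 0.035 in limma), and its change in C9orf89-CKO was −0.10 (95% interval −0.38 to 0.18). The call in RHBDD2-CKO was lost without Non-target 1 or 3 or RHBDD2-CKO 1 or 2 (adjusted p 0.0707 to 0.13 in limma).

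RAB7A (ENSG00000075785, chr3:128726122-128814796, plus strand), which drives fusion with lysosomes, was at 85.4 ± 10.5 FPKM in Non-target, 83.6 ± 6.48 in C9orf89-CKO, 87.8 ± 14.8 in MLPH-CKO, 62.2 ± 8.41 in RHBDD2-CKO and 87.9 ± 12.1 in MAGI2-CKO (SD, n = 3). Its fall in RHBDD2-CKO was −0.46 (SE 0.14, adjusted p 0.0234 in limma), and the adjusted p was 0.0875, 0.080 and 0.0841 without Non-target 1, RHBDD2-CKO 2 or RHBDD2-CKO 3. The 100 tested genes nearest to it had a median log2 change of −0.45 in that clone. RAB24, which is tied to autophagy, rose in RHBDD2-CKO (9.39, 9.49 and 9.85 FPKM against 6.24, 7.91 and 6.51, log2 change 0.48). Of its exon bases 44.8% overlap MXD3 on the same strand, so the reads of both may be mixed. MXD3 was at 4.64 FPKM in Non-target and 3.83 in RHBDD2-CKO. The part of shared reads in the change of RAB24 was not tested.

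RABs of recycling and polarized delivery were mixed: of 11 tested, 1 rose and 2 fell in C9orf89-CKO, 2 and 2 in MAGI2-CKO, 3 and 3 in MLPH-CKO, 2 and 3 in RHBDD2-CKO. As shares these are 27.3%, 36.4%, 54.5% and 45.5%, beside 26.0%, 36.1%, 30.1% and 34.1% of all genes. RAB35, which controls fast recycling and cytokinesis (ENSG00000111737, chr12:120095095-120117502, minus strand), was at 29.1, 29.98 and 29.5 FPKM in Non-target. It was at 19.6, 22.9 and 22.6 in C9orf89-CKO, 19.4, 17.1 and 20.1 in MAGI2-CKO, 21.3, 19.3 and 17.8 in MLPH-CKO and 20.7, 21.1 and 19.3 in RHBDD2-CKO. All 12 clone libraries lay below Non-target, and the clones overlapped each other. The log2 changes were −0.44, −0.65, −0.60 and −0.53 (SE 0.08, adjusted p at most 0.00162 in limma). Its neighbours moved with it, with medians of −0.34, −0.33, −0.37 and −0.39.

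RAB8B, a relative of RAB8A in vesicle delivery to the cell surface and cilium (ENSG00000166128, chr15:63189469-63267782, plus strand), was at 3.98, 3.48 and 3.51 FPKM in Non-target. It was at 4.19, 5.11 and 5.32 in C9orf89-CKO, 5.62, 5.55 and 4.76 in MAGI2-CKO, 5.50, 6.26 and 5.88 in MLPH-CKO and 5.52, 5.39 and 5.72 in RHBDD2-CKO. Each clone library exceeded each Non-target library. Log2 changes came to 0.40, 0.53, 0.67 and 0.59 (SE 0.10, adjusted p at most 0.00872 in limma). RAB8A passed in no clone, and the share of RAB8B in the RAB8 sum went from 32.8% in Non-target to 38.8%, 42.9%, 45.7% and 40.4%. The neighbours of RAB8B had medians of 0.06, 0.41, 0.44 and 0.03, so in C9orf89-CKO and RHBDD2-CKO it rose while their median was near 0.

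RAB11A and RAB11B run the recycling endosome. RAB11A was at 31.7 FPKM in Non-target and 39.0 in MLPH-CKO (log2 change 0.29, SE 0.07, adjusted p 0.00696 in limma), the only RAB gene that set MLPH-CKO apart from all other groups. Its neighbours had a median of 0.43 there. RAB11B was at 28.6, 33.6 and 31.2 FPKM in Non-target and fell in RHBDD2-CKO to 18.3, 24.4 and 21.9 (−0.53, SE 0.12, adjusted p 0.0044 in limma). Its neighbours had a median of −0.06. RAB14, between Golgi and endosomes, fell in C9orf89-CKO (−0.14) and MAGI2-CKO (−0.32) and rose in RHBDD2-CKO (0.23, SE 0.05). Its fall in C9orf89-CKO (adjusted p 0.0427 in limma) did not hold in 16 of the 25 alternative fits. RAB15, a neuronal endosome RAB, rose in MAGI2-CKO (0.32) and fell in MLPH-CKO (−0.27) and RHBDD2-CKO (−0.36, SE 0.06). RAB10 rose in MLPH-CKO by 0.20 (SE 0.06, adjusted p 0.0327 in limma), and the adjusted p was 0.0732 to 0.126 without Non-target 2, Non-target 3, MLPH-CKO 2 or MLPH-CKO 3.

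Early endosome RABs, all 7 tested, gave 2 rises in C9orf89-CKO, 3 falls in MAGI2-CKO, 1 rise and 1 fall in MLPH-CKO and 2 rises and 1 fall in RHBDD2-CKO. The shares are 28.6%, 42.9%, 28.6% and 42.9%, beside 26.0%, 36.1%, 30.1% and 34.1% of all genes. RAB5A, the master regulator of early endosome fusion, fell in MAGI2-CKO (−0.52) and MLPH-CKO (−0.33, SE 0.10), beside neighbour medians of −0.37 and −0.33. The latter call did not hold without Non-target 1 or 3 or MLPH-CKO 2 or 3 (adjusted p 0.0704 to 0.122 in limma). RAB5B rose in C9orf89-CKO (0.19) and RHBDD2-CKO (0.24) and fell in MAGI2-CKO (−0.19, SE 0.06), and RAB5C passed in no clone. The rise of RAB5B in C9orf89-CKO did not hold without Non-target 2 or 3 or C9orf89-CKO 2 or 3 (adjusted p 0.0542 to 0.117 in limma). RAB31, of the trans-Golgi and endosomes, rose in C9orf89-CKO (0.25) and MLPH-CKO (0.28) and fell in MAGI2-CKO (−0.30, SE 0.07), of which the rise in C9orf89-CKO was lost without Non-target 3 or C9orf89-CKO 2 (adjusted p 0.0649 and 0.0562 in limma). RAB20, linked to phagosome maturation, was at 1.83 ± 0.239 FPKM in Non-target and fell in RHBDD2-CKO to 0.955 ± 0.286 (−0.90, SE 0.22, adjusted p 0.00695 in limma), with a neighbour median of −0.50. RAB22A, of recycling from early endosomes, rose in RHBDD2-CKO by 0.27 (SE 0.08), a call lost without Non-target 2 or 3 or RHBDD2-CKO 1 (adjusted p 0.051 to 0.103 in limma).

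Of the endoplasmic reticulum and Golgi RABs 13 of 15 were tested, with 2 rises and 3 falls in RHBDD2-CKO and 1 rise and 2 falls in each of the other clones. That is 38.5% in RHBDD2-CKO and 23.1% in each other clone. Of all genes 26.0%, 36.1%, 30.1% and 34.1% passed in the 4 clones. RAB1B (ENSG00000174903, chr11:66268533-66277492, plus strand) fell from 62.1 ± 3.72 FPKM in Non-target to 52.9, 48.8, 43.96 and 50.1 in the 4 clones (−0.23, −0.35, −0.50 and −0.31, SE 0.07, adjusted p at most 0.0236 in limma). In C9orf89-CKO its adjusted p was 0.071 to 0.0924 in limma without Non-target 2, Non-target 3, C9orf89-CKO 1 or C9orf89-CKO 2. Genes on the opposite strand (AP001107.1 and AP001107.2) overlap 42.6% of its exon bases, and the strand setting of the counting is not given in the sources used here. RAB18, of lipid droplets and the endoplasmic reticulum (ENSG00000099246, chr10:27504174-27542237, plus strand), was at 6.30, 4.97 and 5.84 FPKM in Non-target. It was at 7.77, 8.60 and 8.42 in C9orf89-CKO, 9.92, 7.69 and 7.38 in MAGI2-CKO, 9.59, 7.16 and 8.50 in MLPH-CKO and 9.25, 6.74 and 7.40 in RHBDD2-CKO. The groups did not overlap with Non-target. On the log2 scale the clones differed from Non-target by 0.53, 0.53, 0.55 and 0.44 (SE 0.15, adjusted p at most 0.0341 in limma), beside neighbour medians of 0.36, 0.27, 0.35 and 0.05. Without Non-target 2, the lowest of its group, no clone passed for RAB18 (adjusted p 0.0729, 0.0545, 0.0539 and 0.135 in limma). Leaving out C9orf89-CKO 2, MAGI2-CKO 1 or RHBDD2-CKO 1 also took the call from that clone (0.0551, 0.0545 and 0.131), as leaving out Non-target 3 or RHBDD2-CKO 3 did in RHBDD2-CKO (0.065 and 0.0595). RAB36, of Golgi and late endosomes, rose in RHBDD2-CKO (5.67, 5.26 and 5.66 FPKM against 3.38, 4.12 and 3.50, log2 change 0.58), where its neighbours had a median of 0.40. RAB6B, the brain form of RAB6, fell in C9orf89-CKO (−0.43) and RHBDD2-CKO (−0.64, SE 0.12), and the former call was lost without Non-target 1 or C9orf89-CKO 2 (adjusted p 0.0594 and 0.0554 in limma).

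Of the RABs of cilia all 3 were tested. RAB34, needed for the ciliary vesicle, rose in MAGI2-CKO (16.6 to 23.0 FPKM, log2 change 0.48, SE 0.12). RAB23, a brake on hedgehog signalling, fell in C9orf89-CKO and MAGI2-CKO (4.78 to 3.78 and 3.88 FPKM), and neither fall held without Non-target 2 or 3 (adjusted p 0.0695 to 0.177 in limma), C9orf89-CKO 1 or several other libraries. Of the SOCS box genes 3 of 4 were tested: RAB40A fell in MAGI2-CKO, MLPH-CKO and RHBDD2-CKO (−0.76, −1.35 and −1.13, SE 0.23), from a level of 0.738 FPKM in Non-target. No library of these 3 clones reached 0.5 FPKM, so RAB40A was tested because Non-target is high, and its falls are descriptions. In MAGI2-CKO its fall was lost without Non-target 1 or 3 or MAGI2-CKO 1 or 3 (adjusted p 0.0542 to 0.0725 in limma). Its coding sequence is 98.1% identical to that of RAB40AL, and 12.3% of its 50-base stretches are shared, which makes its values uncertain. RAB40B fell in C9orf89-CKO and RHBDD2-CKO (−0.45 and −0.44, SE 0.12). Without Non-target 2 neither call held (adjusted p 0.0682 and 0.0604 in limma), nor did each without library 1 of its clone (0.0547 and 0.050).

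Groups were also compared directly with each other. RHBDD2-CKO was distinct in the most RAB genes, and it was also distinct in the largest share of all genes. A group counted as distinct in a gene that lay above, or below, each of the other 4 past the threshold. In RHBDD2-CKO this held for 11 of the 51 tested RAB genes, while it held for 11.5% of all genes. RAB14, RAB22A, RAB24 and RAB36 were on the higher side and RAB7A, RAB11B, RAB20, RAB32, RAB39A, RAB39B and RAB3C on the lower. Of these, RAB7A and RAB22A lost their calls against Non-target without some single libraries, and RAB3C was tested only through MAGI2-CKO. In MAGI2-CKO it held for 6 of the 51, while it held for 6.76% of all genes. RAB15, RAB39B and RAB3C were higher and RAB14, RAB29 and RAB31 lower. RAB3C was tested because MAGI2-CKO is high, so it adds no support to this count. MLPH-CKO had RAB11A alone, where 2.89% of all genes were distinct, and C9orf89-CKO had none, where 1.48% of all genes were. Between clones, 41.6% of all genes differed in RHBDD2-CKO against MAGI2-CKO and 21.2% in MLPH-CKO against MAGI2-CKO.

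Clones of this line differ in the copy number of chromosome segments, so the median log2 change of the 100 nearest tested genes was set beside each call. Of the 85 calls of a RAB gene in a clone, 21 (24.7%) had neighbours with a median of at least 0.25 in the same direction, against 27.1% of the calls of all genes. By clone these were 2 of 16 calls in C9orf89-CKO (12.5%, against 1051 of the 4208 calls of all genes), 6 of 23 in MAGI2-CKO (26.1% against 33.9%), 6 of 18 in MLPH-CKO (33.3% against 32.2%) and 7 of 28 in RHBDD2-CKO (against 17.1%). The share thus lay under that of all genes in the first and above it in the last. RAB39B had −0.50 in RHBDD2-CKO and RAB39A −0.54 in MAGI2-CKO. RAB39A in RHBDD2-CKO (0.02) and RAB39B in MAGI2-CKO (0.03) changed without their neighbours. For RAB26, RAB32, RAB3C and RAB9A no clone had a neighbour median beyond 0.25 in either direction. The part of copy number in the changes was not tested.

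RAB13, a RAB of tight junctions, epithelial traffic and RNA-rich protrusions (ENSG00000143545, chr1:153981617-153986358, minus strand), varied with the replicate number more than with the clone. It was at 11.5, 3.64 and 3.77 FPKM in the Non-target libraries 1, 2 and 3. It was at 15.5, 4.02 and 3.71 in C9orf89-CKO, 19.3, 6.22 and 7.19 in MAGI2-CKO, 15.8, 4.17 and 3.93 in MLPH-CKO and 8.53, 2.45 and 2.41 in RHBDD2-CKO. Number 1 exceeded the mean of numbers 2 and 3 in all 5 groups, by 1.61, 1.98, 1.52, 1.94 and 1.77 on the log2 scale. By its median of 1.77 RAB13 ranked 79 from the top among 16175 genes. Without the replicate number in the model no clone passed (SE 0.75), with changes of 0.18, 0.80, 0.23 and −0.54. With it, in the same 15 libraries, the changes in MAGI2-CKO and RHBDD2-CKO passed (adjusted p 7.66e-05 and 0.00144 in limma).

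Compared within a number, RAB13 was higher in MAGI2-CKO than in Non-target by 0.74, 0.76 and 0.91 and lower in RHBDD2-CKO by −0.43, −0.55 and −0.62. With only the libraries numbered 2 and 3 the change was 0.84 in MAGI2-CKO (adjusted p 0.000295 in limma) and −0.59 in RHBDD2-CKO (adjusted p 0.0016). RAB13 was singled out after its values were seen. A gene on the same strand overlaps 24.8% of its exon bases. In the family as a whole 12 RAB genes were higher in number 1 in all 5 groups (23.5%, against 14.4% of all genes) and 5 were lower (9.80%, against 16.8%), with the next largest median at 0.48.

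**Figure D5:**
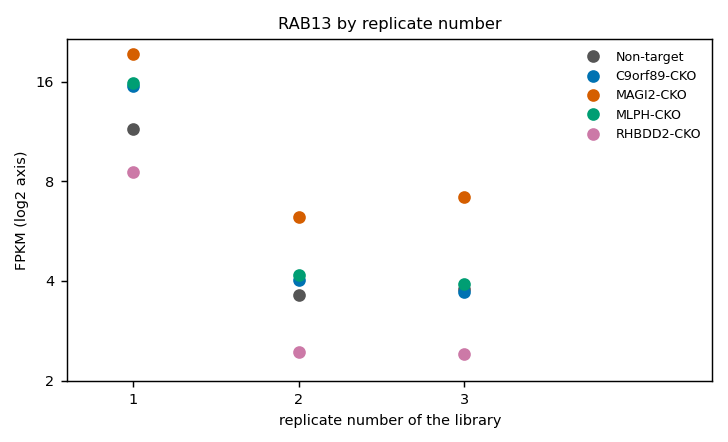
FPKM of RAB13 (log2 axis) in each of the 15 libraries by replicate number, 1 colour per group. In each group number 1 (8.53 to 19.3 FPKM) lies above numbers 2 and 3 (2.41 to 7.19 FPKM), and the order of MAGI2-CKO over Non-target over RHBDD2-CKO is the same in each number.

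Promoters are shown for genes that passed in the same direction in all 4 clones, as sequences only. These comparisons share the Non-target wells, and whether the genes are regulated together was not tested. RefSeq (GRCh38.p14) gave the 250 bases before the start of 49 of the 62 GTPase genes, with a median of 64.8% G and C against 58.0% in 27305 promoters. On either strand a GC box (GGGCGG, bound by SP1-type factors) was in 37 of the 49 (75.5%, against 42.3% of all promoters) and CCAAT in 13 (26.5%, against 33.0%). The promoters compared were not matched for G and C. The E-box CACGTG was in 5 (10.2%, against 6.49%), the cyclic AMP response element TGACGTCA in 1 (2.04%, against 1.77%) and TATAAA in 4 (8.16%, against 11.1%). Promoters of a pair that fell and a pair that rose follow, with matches of GC box and CCAAT in capitals. They are RAB32 at chr6:146543583-146543832 (plus strand), RAB35 at chr12:120116754-120117003 (minus strand), RAB8B at chr15:63189356-63189605 (plus strand) and RAB18 at chr10:27504054-27504303 (plus strand).
RAB32: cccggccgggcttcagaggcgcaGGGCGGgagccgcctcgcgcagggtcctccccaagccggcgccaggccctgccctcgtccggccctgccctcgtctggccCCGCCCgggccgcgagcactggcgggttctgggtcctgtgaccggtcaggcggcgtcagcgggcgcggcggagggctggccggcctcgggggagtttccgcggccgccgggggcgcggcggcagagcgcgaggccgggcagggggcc
RAB35: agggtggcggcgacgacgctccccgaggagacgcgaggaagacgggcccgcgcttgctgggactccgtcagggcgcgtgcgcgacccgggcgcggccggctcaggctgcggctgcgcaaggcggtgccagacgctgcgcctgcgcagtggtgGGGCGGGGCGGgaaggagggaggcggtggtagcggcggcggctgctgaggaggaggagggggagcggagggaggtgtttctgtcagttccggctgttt
RAB8B: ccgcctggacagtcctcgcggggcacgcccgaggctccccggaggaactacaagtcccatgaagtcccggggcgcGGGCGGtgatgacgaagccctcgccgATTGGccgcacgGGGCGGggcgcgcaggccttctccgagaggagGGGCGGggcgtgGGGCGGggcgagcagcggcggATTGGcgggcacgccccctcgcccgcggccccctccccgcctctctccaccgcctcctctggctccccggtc
RAB18: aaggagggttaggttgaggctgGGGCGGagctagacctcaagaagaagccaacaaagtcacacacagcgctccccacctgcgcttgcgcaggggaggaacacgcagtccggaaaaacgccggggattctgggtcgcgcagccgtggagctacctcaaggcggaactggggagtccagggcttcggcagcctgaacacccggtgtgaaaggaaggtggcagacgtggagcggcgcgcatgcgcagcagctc
RAB32 holds 2 GC boxes, RAB35 2 that overlap by 1 base, RAB8B 4 GC boxes and 2 CCAAT letters read on the other strand (ATTGG), and RAB18 1 GC box. The genes that fell and those that rose both held GC boxes. Those of RAB26, RAB38 and RAB39B are not used here.

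The proteins that load, switch and read RABs were followed through lists of 172 genes, 160 of them tested. In C9orf89-CKO 28 rose and 17 fell (28.1% passed), in MAGI2-CKO 24 and 37 (38.1%), in MLPH-CKO 31 and 25 (56 of 160) and in RHBDD2-CKO 36 and 25 (38.1%). These shares lie within 5 percentage points of those of all genes given above. Among 51 GEFs 13 rose and 4 fell in C9orf89-CKO, 4 and 12 in MAGI2-CKO, 10 and 7 in MLPH-CKO and 14 and 9 in RHBDD2-CKO (33.3%, 31.4%, 33.3% and 45.1%, where 26.0%, 36.1%, 30.1% and 34.1% of all genes passed). SMCR8, partner of C9orf72 in a complex that acts on RABs of autophagy, had the largest rise on the hand-written GEF list in each clone. It was at 5.61, 4.61 and 5.18 FPKM in Non-target and between 14.2 and 16.9 in every clone library. The log2 changes were 1.60, 1.58, 1.48 and 1.68 (SE 0.07, adjusted p at most 1.14e-08 in limma). Since these comparisons share the Non-target wells, they can also be read as a low level of SMCR8 in the Non-target clone. DENND4C, a GEF of RAB10, rose in C9orf89-CKO, MLPH-CKO and RHBDD2-CKO (0.58, 0.56 and 0.85). SBF1, a GEF of RAB28, and RIC1, part of a GEF of RAB6, fell in the clones other than RHBDD2-CKO (−0.68, −0.74 and −0.57 for SBF1, −0.48, −0.61 and −0.54 for RIC1). The fall of SBF1 in MLPH-CKO was lost without Non-target 2 or 3 or MLPH-CKO 1 (adjusted p 0.0834 to 0.0905 in limma). In RHBDD2-CKO SBF1 passed with the replicate number in the model (−0.16, adjusted p 0.0135 in limma) and with only numbers 2 and 3 (0.034).

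Among 38 GAPs 4 rose and 3 fell in C9orf89-CKO, 7 and 9 in MAGI2-CKO, 5 and 7 in MLPH-CKO and 9 and 6 in RHBDD2-CKO. These are 18.4%, 42.1%, 31.6% and 39.5% of the GAPs, against 26.0%, 36.1%, 30.1% and 34.1% of all genes. USP6NL, a GAP of RAB5, rose in all 4 clones (0.44, 0.45, 0.31 and 0.21), and TBC1D5, a GAP of RAB7A, fell in all 4 (−0.52, −0.80, −0.33 and −0.37). Without Non-target 3, USP6NL lost its call in RHBDD2-CKO (adjusted p 0.0797 in limma) and TBC1D5 its calls in MLPH-CKO and RHBDD2-CKO (0.151 and 0.084), and each of these 3 calls was also lost without Non-target 1 and several other libraries. TBC1D30 rose in C9orf89-CKO, MLPH-CKO and RHBDD2-CKO (0.96, 0.87 and 0.93) and fell in MAGI2-CKO (−0.28), where 17 of the 25 alternative fits lost the call. TBC1D7, also a subunit of the TSC complex, fell in the clones other than RHBDD2-CKO (−0.64, −0.58 and −0.61). Of the 9 genes of prenylation and GDI, 2 rose and 2 fell in C9orf89-CKO, 3 and 1 in MAGI2-CKO, 4 and 2 in MLPH-CKO and 1 and 3 in RHBDD2-CKO. The shares are 44.4%, 44.4%, 66.7% and 44.4%, on few genes, beside 26.0%, 36.1%, 30.1% and 34.1% of all genes. RABGGTB, the catalytic subunit of RAB geranylgeranyl transferase, rose in the clones other than RHBDD2-CKO (0.42, 0.37 and 0.28), in MLPH-CKO not without Non-target 2 or 3 or MLPH-CKO 2 or 3 (adjusted p 0.0818 to 0.133 in limma). CHM, a RAB escort protein, rose in MAGI2-CKO, MLPH-CKO and RHBDD2-CKO (0.30, 0.40 and 0.23), but without Non-target 2 in MLPH-CKO alone (adjusted p 0.0511 and 0.14 in limma in the others). In RHBDD2-CKO its call was lost in 15 of the 25 alternative fits, and in MAGI2-CKO also without Non-target 3 or MAGI2-CKO 1 (adjusted p 0.0507 and 0.060 in limma). ARL6IP5, a prenylated RAB acceptor family member, fell in all 4 (−0.43, −0.64, −0.51 and −0.50).

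Among 54 effectors 7 rose and 7 fell in C9orf89-CKO, 9 and 12 in MAGI2-CKO, 11 and 9 in MLPH-CKO and 11 and 5 in RHBDD2-CKO. The shares of 25.9%, 38.9%, 37.0% and 29.6% lay near those of all genes (26.0%, 36.1%, 30.1% and 34.1%). EHBP1L1, an effector of RAB8 and RAB10, was at 0.924, 0.767 and 0.727 FPKM in Non-target and rose in all 4 clones (2.11, 0.50, 1.66 and 1.64, SE 0.17). Its call in MAGI2-CKO was lost in 10 of the 25 alternative fits, among them those without Non-target 2 or 3 or MAGI2-CKO 1 or 3 (adjusted p 0.0713 to 0.149 in limma). RILP, which links RAB7A to dynein, rose in the clones other than RHBDD2-CKO (0.98, 1.58 and 1.70, SE 0.19), and its change in RHBDD2-CKO was 0.49 (adjusted p 0.0585 in limma, but 0.0333 without Non-target 2 and 0.00176 without RHBDD2-CKO 3). RILPL1, an effector of LRRK2-phosphorylated RABs, fell in all 4 (−0.77, −0.59, −0.59 and −1.09). APPL1, an effector of RAB5, fell in the clones other than RHBDD2-CKO (−0.40, −0.58 and −0.37). Of 8 RAB-like genes 2 rose and 1 fell in C9orf89-CKO, 1 and 3 in MAGI2-CKO, 1 and 0 in MLPH-CKO and 1 and 2 in RHBDD2-CKO. RASEF, a large RAB with an EF-hand, fell in MAGI2-CKO (−0.80) and rose in C9orf89-CKO, MLPH-CKO and RHBDD2-CKO (0.25, 0.22 and 0.59, SE 0.08), of which the first and second were lost without Non-target 2 (adjusted p 0.111 and 0.149 in limma) and in several other fits. RAB5IF, the member without a GTPase, was at a mean of 23.1 FPKM and fell in RHBDD2-CKO (−0.52, adjusted p 0.0453 in limma), a call lost in 16 of the 25 alternative fits.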

How the data were processed

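RNA of 15 HEK293T libraries (5 groups of 3 wells, RNeasy with DNase I, NEBNext Ultra library, NovaSeq sequencing) was analysed, with groups and replicate numbers from the labels. The authors deposited 1 FPKM value per gene and library without naming the unit. Per the labels' processing notes, HISAT2 2.0.5, featureCounts 1.5.0-p3 and DESeq2 were used. The genome build is not given in the sources used here. Multiplying a value by the gene's exon length in GENCODE 29 (GRCh38) gave a whole number of fragments (tolerance 0.05) in all libraries, which set unit, depth and symbols.

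Genes with at least 0.5 FPKM in 3 libraries (16175) entered limma 3.58.1 (R 4.3.3) on log2(FPKM + 0.1). The fit held all 15 libraries and 5 groups, with eBayes and a trend (prior degrees of freedom 2.62). Each of 10 contrasts was adjusted by Benjamini-Hochberg over all tested genes, with a threshold of 0.05. Fold changes are ratios of mean FPKM, and log2 changes lie on the log2(FPKM + 0.1) scale, which understates those of low genes. Exact 95% intervals of summed fragments used binomial limits. Neighbours were the 100 tested genes nearest on the chromosome, without a test. Sequences came from GENCODE and RefSeq through Python 3.11.15 with numpy 2.4.6, pandas 2.3.3 and Biopython 1.88, and plots from matplotlib 3.10.9. The fit was tested on simulated data.

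RAB genes were named for the 5 highest means, the 5 widest ranges, a change in all 4 clones and the 3 largest rises and falls per clone (mean of at least 1 FPKM, no overlap with Non-target). Genes that set a group apart or moved in both directions are named for that, the other RAB genes after their values were seen. Of each machinery list, the 2 largest rises and falls past the threshold in at least 3 clones are named. The members, compartments and lists were chosen with earlier results of these data known. Alternatives were pseudocounts of 1 and 0.01, no filter, a mean of at least 1 FPKM, quantile normalization, no trend, only the 6 libraries compared, the replicate number as a block, each library left out, voom on the recovered fragments and, added after seeing the data, only numbers 2 and 3 and counts of only genes that pass the filter without any 1 group. The wells of a group may share a culture history, so p-values measure the spread between wells.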

Additional observations from a re-analysis of the deposited data

Results flagged for a closer look

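7 RAB genes rose in 1 clone and fell in another against Non-target, and the direct contrast of both clones gives the size of each difference. The genes were picked by these opposite directions, which share the Non-target wells, so the contrast adds no independent support and is given as a size. RAB3C was also tested only because MAGI2-CKO is high. Between RHBDD2-CKO and MAGI2-CKO, RAB39B differed by −1.59 on the log2 scale (SE 0.09), RAB3C by −3.46 (SE 0.29) and RAB15 by −0.68 (SE 0.06), all lower in RHBDD2-CKO. RAB14 (0.55, SE 0.05), RAB29 (0.64, SE 0.06) and RAB5B (0.43, SE 0.06) were higher in RHBDD2-CKO than in MAGI2-CKO. RAB31 was higher in MLPH-CKO than in MAGI2-CKO by 0.58 (SE 0.07).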

How the results depend on the processing

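Each of the 51 tested RAB genes was put through 25 alternatives in each clone. Of these 204 pairs 85 passed the threshold, 54 of them under every alternative, 31 lost the call under at least 1 (28 of them without at least 1 library), 27 others gained one, and 0 reversed. Of 68 pairs from the machinery genes named in the report and RAB5IF, 57 passed, 42 under every alternative, 15 lost the call under at least 1, 5 gained one, and 0 reversed. Leaving out each library in turn gave 9 to 18 RAB genes in C9orf89-CKO (16 with all libraries), 22 to 29 in RHBDD2-CKO, 14 to 18 in MLPH-CKO, 18 to 23 in MAGI2-CKO and 32 to 36 in the F test. The lowest, 9, was without C9orf89-CKO replicate 2. For the machinery lists the ranges were 34 to 48, 42 to 64, 42 to 61 and 43 to 62 in the clones, in the order of the report. In the same fits 20.3% to 26.99%, 29.4% to 36.9%, 23.96% to 31.1% and 26.4% to 34.9% of all genes passed, and 55.7% to 61.1% in the F test. With only the 6 libraries compared, 38 machinery genes passed in RHBDD2-CKO against 61, and 25.7% of all genes against 34.1%, with fewer libraries to estimate the spread. RAB7A in RHBDD2-CKO lost its call under quantile normalization and without any of 3 libraries (Non-target 1, RHBDD2-CKO 2 or 3), with an adjusted p of up to 0.0875 in limma. RAB9B in RHBDD2-CKO lost its call under 8 alternatives, RAB1B in C9orf89-CKO under 7, and RAB10 and RAB26 in MLPH-CKO and RAB18 in RHBDD2-CKO under 6 each. Calls of RAB4A (MLPH-CKO), RAB33B (MLPH-CKO) and RAB43 (MAGI2-CKO and RHBDD2-CKO) were also lost without 1 library or more. The cause was not tested.

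Residuals of libraries with the same number correlated weakly but with a positive sign in all 30 pairs (median 0.0856, lowest 0.00103). Not every pair exceeded 0.1 and the labels name nothing shared, so the wells were not treated as paired, although the libraries numbered 1 stood apart. With a replicate block in the model, 20, 27, 24 and 31 RAB genes passed in the 4 clones, where 35.4%, 44.3%, 38.9% and 43.5% of all genes passed, and 38 in the F test, where 71.9% of all genes passed. Among the 204 pairs the block lost 0 calls and gained 17, among them RAB1A in MAGI2-CKO, RAB11A in RHBDD2-CKO, RAB3B in C9orf89-CKO and MLPH-CKO and RAB13 in MAGI2-CKO (adjusted p 7.66e-05 in limma) and RHBDD2-CKO (0.00144). No setting moved the median of all genes by more than 0.0642 on the log2 scale. Depth limits the 11 untested RAB genes and the ratios of RAB38 and RAB3C.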
